A study of Mus musculus with 32 samples.

Results

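The interferon-stimulated and antiviral RNA sensing genes followed here were 39 listed genes whose products detect foreign nucleic acids, relay the interferon signal or act against viruses. They were found by gene symbol in a count table of 32 RNA-seq libraries of mouse cortical neurons, and a gene was tested at a time point when at least 5 counts were present in at least 3 of its 16 libraries. All 39 of the 20182 genes tested at either time belonged to the list by name alone: 38 were tested at 6 h (not Oas3), 36 at 5 d (not Zbp1, Oas2 and Oasl1) and 35 at both. The neurons came from wild-type (WT) C57BL/6 embryos of day 17 to 18 and were either untreated or given 10 µg/mL of an oligoribonucleotide, and were collected after 6 h or after 5 d. The oligoribonucleotide was miR-92a-1-5p, alternatively miR-124-5p, or a control named Mut.oligo, a mutated let-7b sequence. The oligoribonucleotides were synthetic and carried a phosphorothioate backbone. Each of the 8 groups had 4 libraries, labelled as biological replicates, and no library had been treated with interferon or another known inducer of these genes, so no positive control for their induction was among the libraries. No value in the files shows which oligoribonucleotide a library received, and the groups rest on the labels. The extracellular miRNAs were studied as possible ligands of Toll-like receptors in neurons, and the comparisons below ask whether the antiviral arm of gene expression differed from untreated neurons after either miRNA or the control, and whether it differed between the 2 times.

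Foreign RNA is detected in the cytosol by RIG-I (Ddx58) and MDA5 (Ifih1), which signal through the mitochondrial adaptor MAVS, and in endosomes by Toll-like receptors such as TLR3 and TLR7. Both routes activate interferon regulatory factors, type I interferon is secreted, and its receptor drives a complex that holds STAT2 and IRF9 onto interferon-stimulated response elements in the promoters of interferon-stimulated genes. Their products degrade or sequester viral RNA, block translation, hold virions at membranes or modify proteins with ISG15, and neurons are known for low basal levels of many of them.

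The sequence of the miRNA is shown because the treatment itself is a short RNA, with its seed (bases 2 to 8) in capitals. It was taken from RefSeq and lies at chr14:115044437-115044459 on the plus strand of GRCm38.p6, in the Mir92-1 gene.
miR-92a-1-5p: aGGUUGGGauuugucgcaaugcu

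The response element was looked for in RefSeq promoter windows of GRCm38.p6 (250 bases before to 50 bases after a gene start) as GAAANNGAAA on either strand. A window was given for 30 of the 39 genes, and 14 of these 30 (46.7%) held a match, against 1079 of 27025 genes with a window (3.99%) over the whole table. A match is a run of letters and not a measured site of binding. Of the 14 genes, 9 held a match in a stretch of 30 bases wholly before the start, and those of 5 genes are shown as examples from different roles, with the matches in capitals and overlapping matches run together. All are written 5′ to 3′ on the strand of the gene, so that a match on the other strand reads TTTCNNTTTC.
Isg15 (chr4:156200871-156200900, minus strand): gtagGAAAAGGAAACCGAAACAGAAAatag
Ifit1 (chr19:34640785-34640814, plus strand): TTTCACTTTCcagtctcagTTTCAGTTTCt
Bst2 (chr8:71537580-71537609, minus strand): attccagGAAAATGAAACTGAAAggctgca
Stat2 (chr10:128270266-128270295, plus strand): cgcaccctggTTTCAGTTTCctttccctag
Rsad2 (chr12:26456553-26456582, minus strand): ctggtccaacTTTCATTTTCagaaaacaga
The Isg15 stretch held 3 overlapping matches between 78 and 57 bases before the start, and those of Ifit1 and Bst2 held 2 each. The windows of Irf7, Oasl1 and Oasl2 held none of these letters, and Usp18, Rtp4, Mx1, Mx2, Ifi27, Parp14, Dhx58, Zbp1 and Oas2 had no window.

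The libraries held 24514090 to 73626029 counts, so that 3 counts, the limit that a count of 0 allows, stood for 0.0395 to 0.119 CPM (counts per 1000000) at 6 h and 0.0501 to 0.0783 CPM at 5 d, for counting error only. The labels give an experiment batch for each library, lettered here A to G at 6 h and H to M at 5 d. No batch held libraries of both times, so time and batch cannot be told apart. Neuronal markers, 10 genes that included Map2, Rbfox3 and Snap25, summed to 5686 to 8483 CPM in every library, and markers of other cells were present too. Microglial markers (14 genes) summed to 23.8 to 43.2 CPM at 6 h and 40.9 to 70.9 CPM at 5 d, and astrocyte markers (8 genes) to 373 to 815 CPM and 1758 to 3140 CPM. In these bulk cultures fewer cells of a type and less RNA per cell cannot be told apart.

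Most of the genes were low in untreated neurons. As RPKM, the CPM per kilobase of exon, which lets genes of different length be compared, the median of the 39 genes was 0.299 at 6 h and 0.203 at 5 d, 11 genes at 6 h and 10 at 5 d reached 1 RPKM, and 7 and 11 were below 0.1 RPKM. The highest at 6 h were Stat2, a transcription factor that acts with IRF9, at 6.59 RPKM, and Ifitm3, a membrane protein that blocks viral fusion, at 6.52 RPKM. They were followed by Ifi27 (3.98 RPKM), Ifitm2 (3.32 RPKM), the virion tether Bst2 (3.09 RPKM), Irf3 (2.82 RPKM), Irf9 (2.53 RPKM) and the RNA-binding protein Ifit2 (2.07 RPKM). The lowest were Oas3 (0.0110 RPKM), Mx1 (0.0122 RPKM), Zbp1 (0.0127 RPKM) and Oas2 (0.0207 RPKM), with 0 to 7 counts per untreated library at 6 h. Mx1 codes for a GTPase that blocks influenza virus, and C57BL/6 mice carry a defective allele of it.

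**Figure D1:**
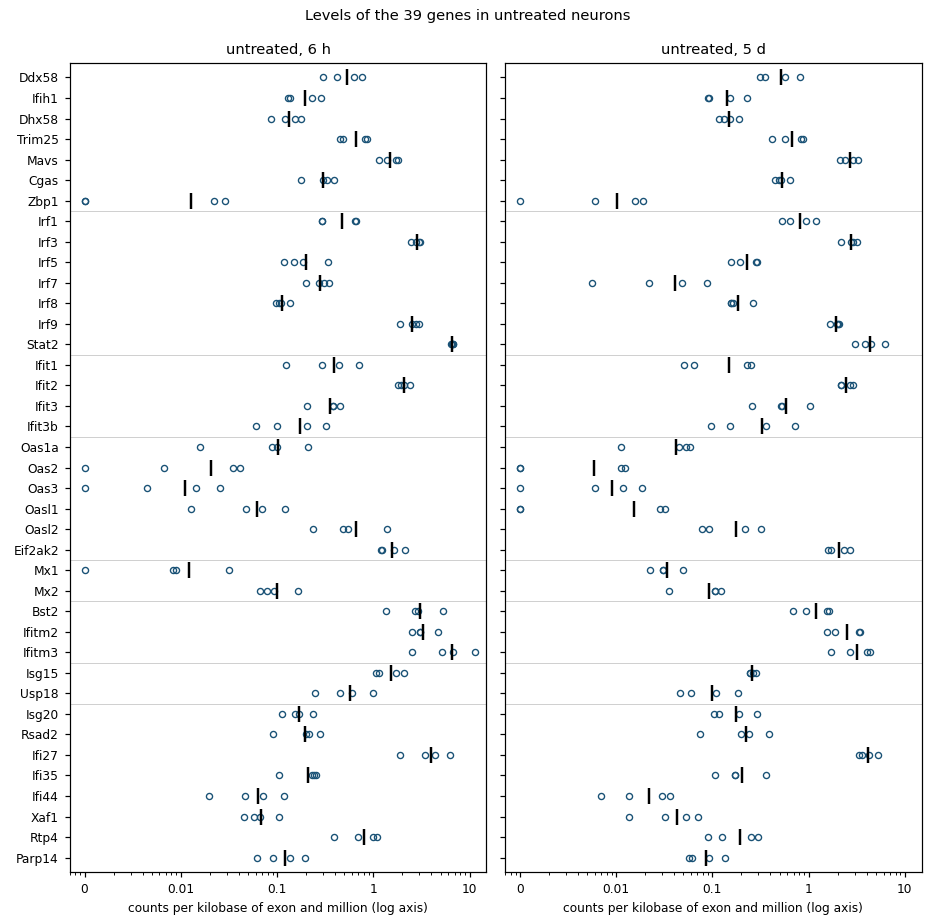
Levels of the 39 genes in the 4 untreated libraries of each time, in RPKM on a log axis. Circles are libraries, bars are group means, circles at the left edge are libraries with 0 counts, and gray lines separate the roles of the products. Stat2 and Ifitm3 sit highest at 6 h and Oas3 and Mx1 lowest, and the libraries of 1 group differ several-fold for many genes.

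The interferons themselves were at or near 0. Of 12 interferon genes (type I, type II and lambda), 7 had 0 counts in all 32 libraries, the other 5 had at most 4 counts in any library, and none passed the filter. Ifnb1, the interferon beta gene, had 1 count in 1 library at 6 h and 2 counts in 1 library at 5 d. The receptor chains were present in every library at 6 h, with a median of 95.8 CPM for Ifnar1 and 13.1 CPM for Ifnar2, as was the kinase Jak1 (183 CPM). Of the endosomal RNA receptors, Tlr7 had a median of 0.627 CPM at 6 h and 1.02 CPM at 5 d, and Tlr3 1.10 and 3.87 CPM.

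No member passed the test after exposure to any oligoribonucleotide. A gene was called when its edgeR quasi-likelihood test gave a Benjamini-Hochberg adjusted p under 0.05 over all genes tested and its log2 fold change was above 0.5 in either direction. At 6 h, 0 of 38 members were called after any of the 3 oligoribonucleotides against untreated, where 0% of the 18755 genes tested were called in each comparison. At 5 d, 0 of 36 were called, where 0.00517% of 19333 genes were called for miR-92a-1-5p and 0% for each of the others. At an unadjusted p under 0.05, 0 members stood out in any of the 6 comparisons in edgeR, and DESeq2 called 0 members as well. The shares of all genes past these limits are not given here. The paper reported genes called with DESeq2 after both miRNAs at each time, so the shares above hold for edgeR only. The 3 comparisons of a time share their untreated libraries and are not independent of each other.

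The medians of the members lay close to 0 for both miRNAs at 6 h. After miR-92a-1-5p the median log2 fold change was 0.08, with 29 members above 0 and 9 below, and over all genes it was 0.01. After miR-124-5p it was also 0.08, with 24 above 0 and 14 below, against -0.00 over all genes. Neither sign held when 1 library was left out. The miR-92a-1-5p median ran from -0.06 (without its replicate 3; -0.02 without untreated replicate 3) to 0.38 (without untreated replicate 4), and the miR-124-5p median from -0.30 (without its replicate 1; -0.09 without untreated replicate 3) to 0.26 (without untreated replicate 4). After Mut.oligo it was 0.32, with 33 above 0 and 5 below. That value turned to -0.02 without Mut.oligo replicate 4, the only library of batch G, and to -0.08 with the batch as a covariate, and it was 0.57 without untreated replicate 4. At 5 d the medians were -0.07 for miR-92a-1-5p (27 of 36 below 0), -0.10 for miR-124-5p (26 below 0) and -0.28 for Mut.oligo (31 below 0), and the last was -0.11 with the batch as a covariate and -0.13 without untreated replicate 3, the only library of batch L. Without that library the medians of the miRNAs were 0.03 and 0.01. Mural and fibroblast markers moved with the Mut.oligo values at 6 h, where 8 of 8 were above 0 with a median of 0.58 (0.11 with the batch as a covariate), as did 14 of 14 microglial markers with a median of 0.17 (-0.02). Their part in these medians was not tested.

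Described by role, the cytosolic sensors and their adaptors had a median log2 fold change of 0.16 at 6 h after miR-92a-1-5p, over 7 genes, and 0.06 when miR-124-5p was given. The 4 IFIT genes, whose products bind RNA that lacks the host cap, had medians of 0.37 and 0.13 in the same order, with Ifit3 and Ifit3b not fully separate because they share 41.1% and 35.7% of their 75-base windows with each other, and the 5 tested members of the double-stranded RNA activated group (OAS family and PKR) of -0.12 and 0.21. ISG15 and its protease USP18 had medians of 0.05 and -0.06. At 5 d the 4 IFIT genes had medians of -0.14 and -0.26, and the 6 sensors of -0.02 and -0.07. None of these members passed the test, and the median standard error of a member was 0.438 to 0.462 at 6 h and 0.350 to 0.361 at 5 d.

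**Figure D2:**
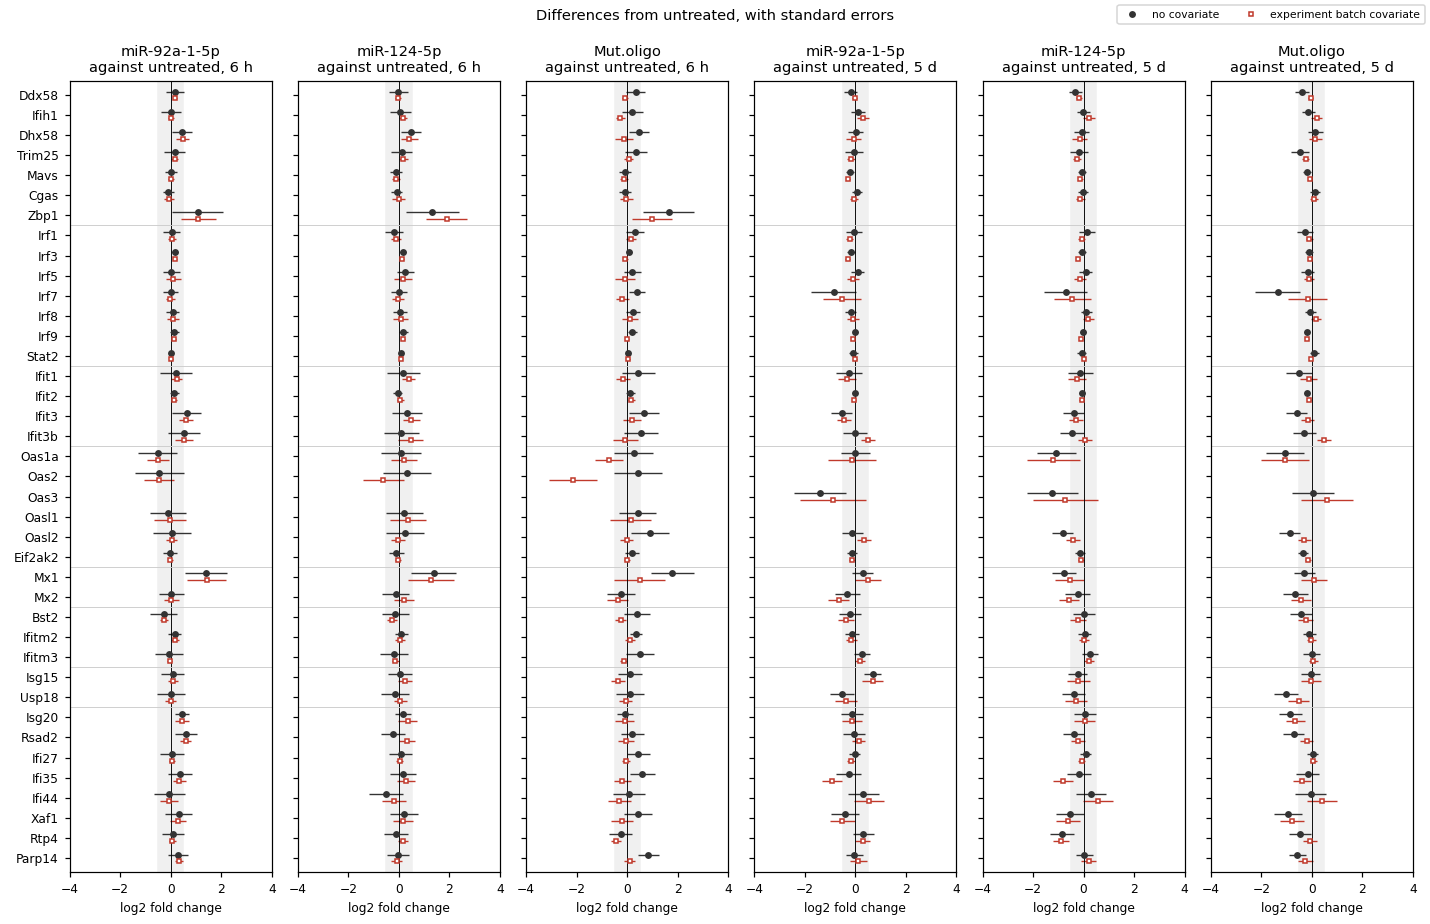
Log2 fold change of each tested member from untreated, with its standard error, for the 3 oligoribonucleotides at 6 h and at 5 d. Filled circles are fits with no covariate, open squares fits with the experiment batch as a covariate, and the gray band is the range of 0.5 in either direction that no called gene may lie in. No member was called in any panel, and the median standard error at 6 h is 0.438 to 0.462 with no covariate and 0.204 to 0.268 with it.

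The members with the smallest p in each comparison show how wide the intervals were. Mx1 led all 3 comparisons at 6 h and was counted in single digits. The untreated libraries held 1, 1, 4 and 0 Mx1 counts, those of miR-92a-1-5p 3, 5, 10 and 6, those of miR-124-5p 7, 5, 2 and 2, and those of Mut.oligo 1, 4, 3 and 11. The groups overlapped in every comparison. The log2 fold change of Mx1 was 1.38 after miR-92a-1-5p (95% interval -0.39 to 3.16), 1.37 after miR-124-5p (-0.49 to 3.24) and 1.79 after Mut.oligo (-0.02 to 3.60), the last 0.49 with the batch as a covariate. Of the 4 batches with a library of miR-92a-1-5p and an untreated one, Mx1 was higher with the miRNA in 3.

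Irf3, the factor that RIG-I and TLR3 signaling phosphorylates, was measured far more precisely. Its 6 h values were 9.48, 10.5, 8.51 and 10.3 CPM in untreated libraries, 11.9, 10.4, 10.8 and 10.6 CPM after miR-92a-1-5p, and 11.3, 11.2, 11.2 and 9.91 CPM after miR-124-5p. The groups overlapped at 10.4 to 10.5 CPM and at 9.91 to 10.5 CPM. The log2 fold change was 0.17 for both miRNAs, with a 95% interval of -0.06 to 0.40 for miR-92a-1-5p, and with miR-92a-1-5p all 4 batches had higher Irf3 than untreated, with log2 CPM differences from 0.00 to 0.48. At 5 d Irf3 was lower in both batches that held the pair. Isg20, a 3′ exonuclease, was second by p for miR-92a-1-5p at 6 h, at 0.45 (-0.15 to 1.05), and Stat2 was second for miR-124-5p, at 0.09 (-0.03 to 0.21). For Mut.oligo at 6 h, the ADP-ribosyltransferase Parp14 was at 0.83 (-0.05 to 1.70) with no covariate and at 0.09 with the batch, and Zbp1, a sensor of Z-form nucleic acid with 0 to 3 counts in untreated libraries, at 1.64 (-0.51 to 3.79) and 0.98.

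At 5 d the member with the smallest p after miR-92a-1-5p was Isg15, the ubiquitin-like modifier that is a sensitive reporter of interferon. Its values were 0.201, 0.214, 0.185 and 0.184 CPM in untreated libraries and 0.209, 0.464, 0.255 and 0.322 CPM after miR-92a-1-5p, and only the lowest treated library lay within the untreated range. They stood for 10 to 12 and 8 to 22 counts. The log2 fold change was 0.68 (95% interval -0.07 to 1.42) with an edgeR Benjamini-Hochberg adjusted p of 1.00, and it was higher in 2 of 2 batches, by 0.67 and 1.04. The untreated libraries at 6 h held 0.812 to 1.59 CPM of Isg15, so all 4 treated libraries at 5 d lay below all 4 untreated libraries at 6 h. Mavs had a log2 fold change of -0.22 after miR-92a-1-5p with no covariate (-0.55 to 0.12) and had a log2 fold change of -0.28 (-0.46 to -0.10) with the batch, where its adjusted p in edgeR was 0.232.

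The members with the smallest p at 5 d for the other oligoribonucleotides were all below 0. After miR-124-5p, Oasl2, a member of the OAS family, was at -0.83 (-1.73 to 0.07), Rtp4, a chaperone with antiviral activity, at -0.86 (-1.82 to 0.11) and Mx1 at -0.77 (-1.74 to 0.20). Rtp4 was lower in 2 of 2 batches, and its interval with the batch as a covariate was -1.58 to -0.23, at an edgeR adjusted p of 0.785. After Mut.oligo, Usp18 was at -1.03 (-2.06 to 0.00), Oasl2 at -0.88 (-1.78 to 0.02) and Isg20 at -0.86 (-1.82 to 0.10). Usp18 was lower in 3 of 3 batches, with log2 differences of -0.51 to -0.23, and with the batch as a covariate its log2 fold change was -0.52. Oas3 after miR-92a-1-5p, at -1.40 (-3.60 to 0.80), rested on 0 to 7 counts per library.

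Comparison with the control oligoribonucleotide in place of untreated neurons also gave 0 members called at 6 h and at 5 d for both miRNAs, where 0% of all genes were called, with 0 members at an unadjusted p under 0.05 in edgeR and 0 called in DESeq2. Against Mut.oligo at 6 h the medians of the members were -0.17 for miR-92a-1-5p, or 0.20 with the batch as a covariate, and -0.25 for miR-124-5p, or 0.18. At 5 d they were 0.25 (0.03 with the covariate) and 0.16 (-0.04). The test of whether a difference from untreated itself differed between 5 d and 6 h called 0 members for each oligoribonucleotide, with 0% of all genes called, and 0 members at an unadjusted p under 0.05 in edgeR for miR-92a-1-5p, 1 for miR-124-5p and 2 for Mut.oligo. DESeq2 called 0 members in these tests too. The shares of all genes at that unadjusted p and in DESeq2 are not given here, so these counts cannot be read as a result about the members.

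Adjusting for the experiment batch narrowed the errors without adding a call. The median standard error of a member at 6 h went from 0.438 to 0.204 for miR-92a-1-5p, from 0.461 to 0.264 for miR-124-5p and from 0.462 to 0.268 for Mut.oligo, and the number of members whose 95% interval lay within 1 log2 unit of 0 went from 14, 16 and 11 of 38 to 28, 25 and 29. At 5 d the numbers went from 21, 20 and 17 of 36 to 21, 23 and 25. In these fits 0 members were called at either time, where 0.208%, 0% and 0.0213% of all genes were called at 6 h and 0.352%, 0.0259% and 0.0466% at 5 d, in the order miR-92a-1-5p, then miR-124-5p, then Mut.oligo. At an unadjusted p under 0.05 there were 3, 1 and 2 members at 6 h and 3, 2 and 1 at 5 d. The shares of all genes at that p are not given here, so these counts cannot be read as a result about the members. A library alone in its batch adds nothing to the treatment estimate of such a fit, which at 6 h were Mut.oligo replicate 4 and miR-124-5p replicate 3 and at 5 d was untreated replicate 3.

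The genes around the members were tested too. None of 14 genes for interferon receptors and JAK-STAT signaling, 16 genes for endosomal Toll-like receptors, STING and kinases upstream of interferon, and 44 further interferon-stimulated genes (42 at 5 d) was called against untreated for any oligoribonucleotide at either time. For miR-92a-1-5p at 6 h their medians were 0.02, -0.01 and 0.01, and at 5 d 0.02, -0.05 and -0.00. For miR-124-5p the medians were 0.01, -0.11 and -0.02 at 6 h and -0.01, -0.03 and 0.01 at 5 d. The further interferon-stimulated genes moved with the members after Mut.oligo, with medians of 0.26 at 6 h and -0.13 at 5 d, but with the batch as a covariate these were -0.06 (20 of 44 above 0) and -0.00 (21 of 42).

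Many members differed between experiment batches. With group and batch in 1 fit, the batch term had an adjusted p under 0.05 in edgeR for 29 of 38 members at 6 h, against 28.2% of all genes tested, and for 21 of 36 at 5 d, against 25.9%. This test and the genes named from it were chosen after the values had been seen. With only the batches that held at least 2 libraries the counts were 27 and 20. Among the batches of at least 2 libraries at 6 h the median gap between the highest and lowest was 1.31 on the log2 scale, batch E was highest for 29 of the 38 members and batch A lowest for 21. The single library of batch G was the highest of all 16 for 23 members. Ranks of batches and libraries were not counted over all genes at either time, so these counts cannot be called particular to the members.

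Oasl2 had the widest gap among these batches, at 3.00 log2 units, and was higher still in the library of batch G. The 4 libraries of batch E held 6.48 to 10.6 CPM of Oasl2 and the 3 of batch A 0.710 to 1.50 CPM, whatever the treatment. Ifitm3 had the smallest adjusted p of the members for the batch term in edgeR, 1.50e-07. It was at 6.94 to 7.80 CPM in batch E and at 1.28 to 1.71 CPM in batch A.

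Others of the 29 behaved alike. Ddx58, which codes for RIG-I, was at 4.81 to 5.86 CPM in batch E and 2.06 to 2.35 CPM in batch A, Ifit1 at 1.43 to 2.54 and 0.246 to 0.483 CPM, Bst2 at 3.22 to 4.83 and 0.610 to 1.23 CPM, and Usp18 at 2.07 to 3.15 and 0.410 to 0.762 CPM. The batch term was not past the threshold at 6 h for Stat2, Irf3, Irf5, Irf8, Ifit2, Cgas, Isg20, Mx1 and Oasl1. Stat2 was the steadiest, at 37.3 to 44.1 CPM over all 16 libraries.

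**Figure D3:**
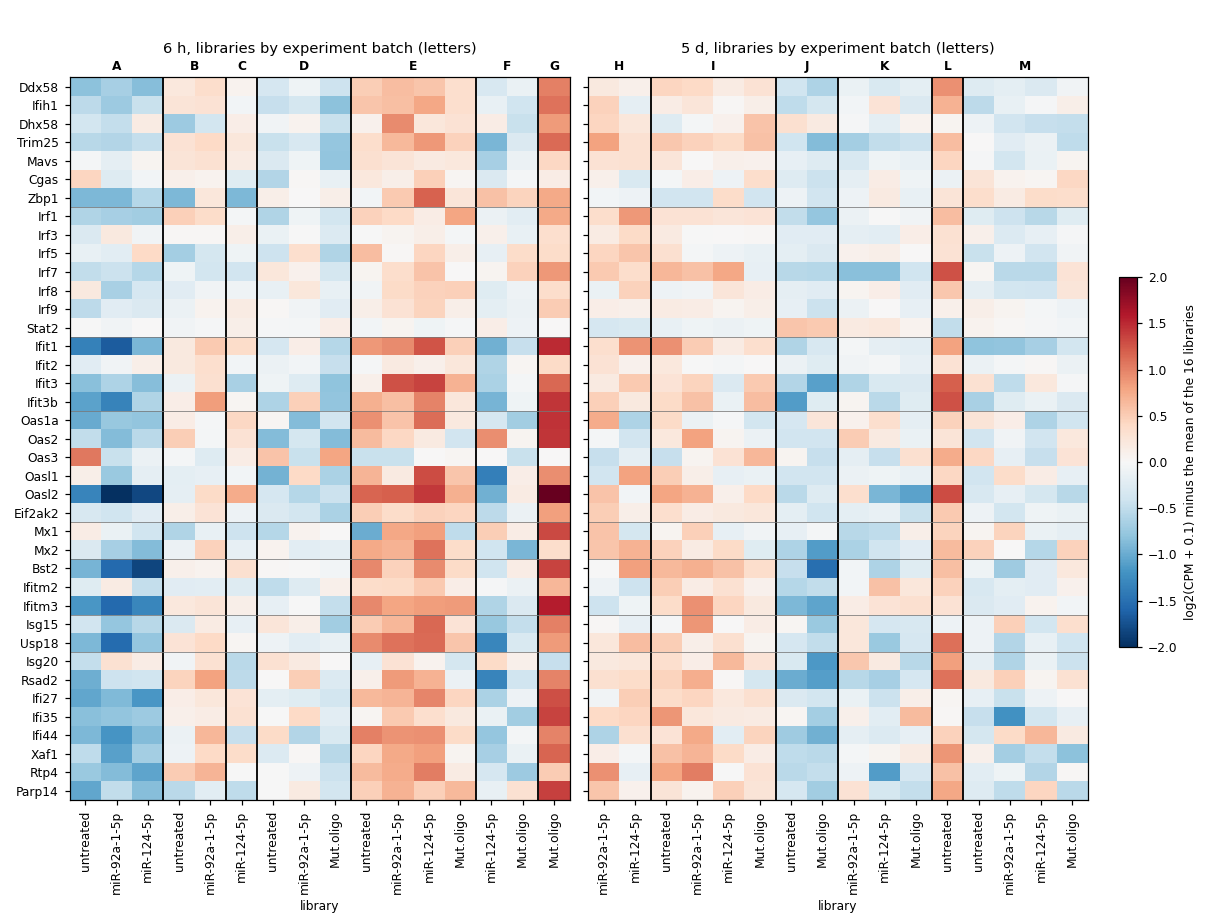
The 39 genes in all 32 libraries, as log2(CPM + 0.1) minus the mean of the 16 libraries of a time, with libraries ordered by experiment batch (letters above, black lines between batches) and gray lines between the roles of the genes. At 6 h batch A is mostly blue (lower), batch E and the single library of batch G mostly red (higher), with untreated and treated libraries of a batch alike, and at 5 d batch J is mostly blue and the single library of batch L red.

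Among the batches of at least 2 libraries at 5 d, J was lowest for 25 of the 36 members and H highest for 18, with a median gap of 0.877 log2 units. The single library of batch L was the highest of all 16 for 16 members. Stat2 ran opposite to most members there. It was at 36.4 to 37.0 CPM in batch J and 20.1 to 20.5 CPM in batch H, with an edgeR adjusted p of 1.88e-05 for the batch term. Mx2 had the widest gap among the batches of at least 2 libraries, at 1.83 log2 units, with 0.0618 to 0.470 CPM over all 16 libraries.

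Markers of other cell types moved with the batches at 6 h. The 8 markers of mural cells and fibroblasts, among them Col1a1, Col1a2 and Pdgfrb, summed to 31.5 to 34.8 CPM in batch A, 126 to 133 CPM in batch E, 204 CPM in the library of batch G, and 62.4 to 83.3 CPM in the other batches. The mean log2 CPM of the 38 members was -0.41 to -0.25, 0.64 to 1.12 and 1.33 in the first 3 of these. Microglial markers summed to 29.2 to 32.7, 40.6 to 42.5 and 43.2 CPM, and were lowest, at 23.8 to 24.7 CPM, in batches B and C, where the members were at 0.31 to 0.58. In miR-124-5p replicate 2 of batch F they also summed to 24.7 CPM, with the members at -0.03. In Mut.oligo replicate 3 of batch D they summed to 25.5 CPM, with the members at -0.06. Endothelial markers summed to 2.69 to 2.89 CPM in batch A, 5.43 to 6.65 CPM in batch E and 10.7 CPM in batch G. They summed to 6.92 to 8.71 CPM in batch B and 3.63 to 4.81 CPM in batches C, D and F. Of their 8 genes, Ly6c1 was at 0 in 14 of the 16 libraries at 6 h and Cldn5 in 6. Astrocyte markers summed to 563 to 574 CPM in batch A, 694 to 735 CPM in batch E and 815 CPM in batch G. Those of the oligodendrocyte lineage summed to 200 to 210, 280 to 287 and 234 CPM. Both sums were lower in batches D and F, at 373 to 450 and 118 to 175 CPM, where the members were at -0.06 to 0.31. At 5 d the mural and fibroblast sum was 55.5 to 63.6 CPM in batch J and 46.8 to 64.2 CPM in batch H, and the astrocyte sum was 1822 to 1906 CPM and 2555 to 2844 CPM. The part of these cells in the differences between batches was not tested.

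At 5 d against 6 h, 23 of the 39 members had a log2 fold change below 0 in all 4 groups and 5 above 0 in all 4. A smaller set was called lower in every group. In untreated neurons 9 of 39 members were called lower and 4 higher, where 13.3% and 20.7% of 20182 genes were called, and the median log2 fold change was -0.24 against 0.07 over all genes. Within miR-92a-1-5p 12 were lower and 2 higher (14.7% and 19.6% of all genes), within miR-124-5p 11 and 4 (14.1% and 20.5%) and within Mut.oligo 17 and 2 (15.1% and 19.5%). The contrasts in the treated groups were added after the untreated values had been seen. Batches E, I and M each held a library of all 4 groups. The 4 contrasts over time are therefore not independent of each other. Called lower in all 4 groups were 7 members, Irf7, Isg15, Usp18, Rtp4, Oasl2, Bst2 and Stat2, and called higher in all 4 were Mavs and Cgas. In all, 17 members were called lower in at least 1 group, 4 were called higher, none was called both ways and 18 were called in none. Calls and signs shared between groups were not counted over all genes, so only the counts within a group have a share of all genes beside them.

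Irf7 fell furthest. This factor amplifies type I interferon, and its gene lies at chr7:141262706-141266481 (GRCm38, minus strand). The untreated libraries held 1.31, 1.03, 0.752 and 1.15 CPM at 6 h and 0.185, 0.0214, 0.334 and 0.0838 CPM at 5 d. Over all groups the 16 libraries of 6 h ran from 0.711 to 2.08 CPM with a median of 1.13, the 16 of 5 d from 0 to 0.334 CPM with a median of 0.0717, and the times did not overlap. The log2 fold change was -2.72 in untreated neurons (SE 0.544, edgeR adjusted p = 9.74e-05) and -4.47 to -2.72 over the 4 groups, on 0 to 18 counts per library at 5 d.

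Isg15, at chr4:156199424-156200818 (minus strand), showed the same separation of times. Its range was 0.601 to 2.54 CPM at 6 h and 0.0824 to 0.464 CPM at 5 d, with medians of 1.08 and 0.203 CPM. The log2 fold change in untreated neurons was -2.54, or 5.80-fold lower (SE 0.449, edgeR adjusted p = 2.00e-05). Usp18, the protease that removes ISG15 and restrains the interferon receptor, was at 1.27, 1.69, 0.692 and 2.74 CPM in untreated libraries at 6 h and at 0.302, 0.128, 0.519 and 0.168 CPM at 5 d. Each of the 4 libraries at 6 h was above all 4 at 5 d, and the log2 fold change was -2.51 (SE 0.551, edgeR adjusted p = 0.000302).

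Rtp4 was at 1.47, 2.13, 0.842 and 2.35 CPM at 6 h and 0.637, 0.193, 0.537 and 0.268 CPM at 5 d in untreated libraries, again without overlap, with a log2 fold change of -2.04 (SE 0.464, edgeR adjusted p = 0.000442). Counts of Rtp4 are less certain than the others, since 10.5% of its 75-base windows also occur in the overlapping gene Gm45338. Oasl2 was at 3.08, 3.45, 1.50 and 8.90 CPM at 6 h and 1.38, 0.492, 2.02 and 0.587 CPM at 5 d, where 1 library of 5 d lay above the lowest of 6 h, and Bst2 at 2.48, 2.63, 1.23 and 4.83 CPM and 1.46, 0.621, 1.41 and 0.838 CPM, where 2 did. Their log2 fold changes were -1.92 (SE 0.673, adjusted p = 0.0166) and -1.37 (SE 0.510, adjusted p = 0.0240) in edgeR.

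Stat2 had a smaller fold change. Its untreated values were 39.5, 38.1, 39.9 and 38.6 CPM at 6 h and 22.6, 37.0, 17.9 and 26.6 CPM at 5 d, so the 5 d libraries spread widely and still lay below all at 6 h. The log2 fold change was -0.59 (SE 0.145, edgeR adjusted p = 0.00108), and over all groups 37.3 to 44.1 CPM at 6 h did not overlap 17.9 to 37.0 CPM at 5 d. Stat2, Irf7 and Isg15 were the 3 members without overlap between the 16 libraries of each time, and the other 36 overlapped. Genes without overlap were not counted over all genes, so this count cannot be called particular to the members. The 16 libraries came from 7 batches at 6 h and 6 at 5 d, so they are not all independent of each other.

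The members that rose were a sensor, an adaptor and a pair of transcription factors. Mavs, the adaptor of RIG-I and MDA5, was at 3.85, 5.70, 4.60 and 5.97 CPM at 6 h and 9.60, 7.17, 10.9 and 7.95 CPM at 5 d in untreated libraries, a log2 fold change of 0.82 (SE 0.205, edgeR adjusted p = 0.00114). Cgas, the cytosolic DNA sensor, was at 0.737, 1.25, 1.59 and 1.36 CPM and 2.15, 1.84, 2.04 and 2.67 CPM, at 0.81 (SE 0.206, edgeR adjusted p = 0.00141). Both were without overlap in untreated neurons. Irf1 (0.80, SE 0.341, adjusted p = 0.0482) and Irf8 (0.71, SE 0.248, adjusted p = 0.0164), a factor of myeloid cells and microglia, were called by edgeR in untreated neurons and after miR-124-5p. RIG-I, MDA5 and PKR, the other main RNA sensors, were not called in any group, with log2 fold changes in untreated neurons of -0.05 for Ddx58, -0.48 for Ifih1 and 0.41 for Eif2ak2.

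**Figure D4:**
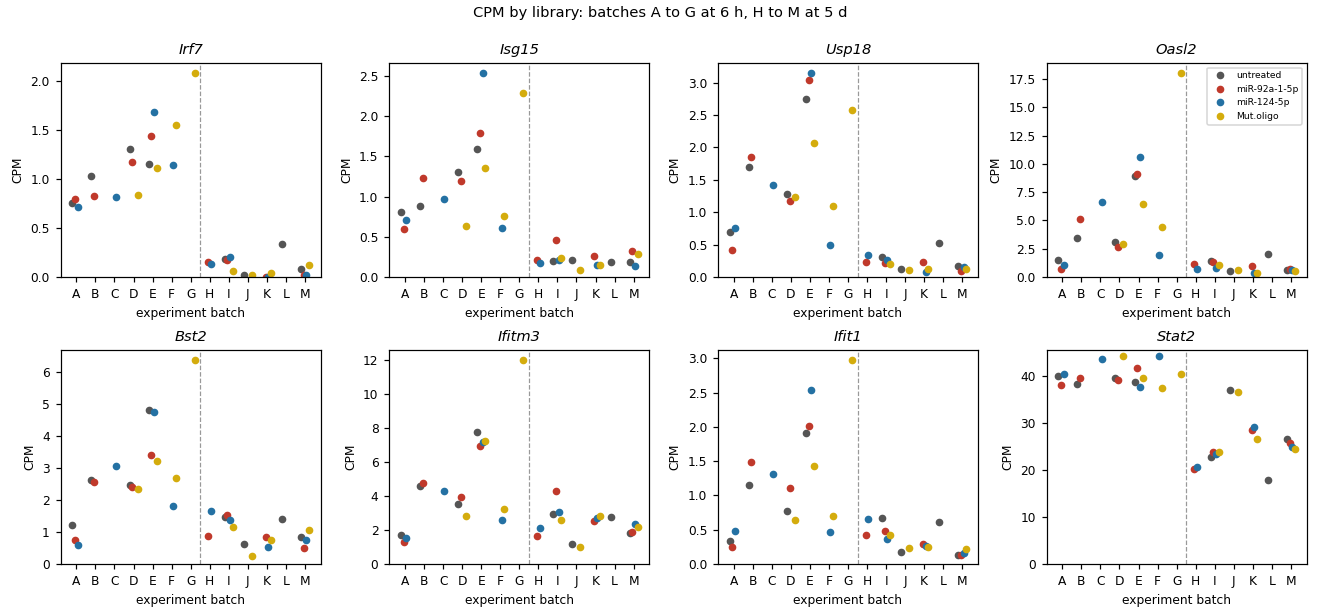
CPM of 8 members in each library by experiment batch, batches A to G at 6 h and H to M at 5 d (dashed line between), colored by group. Irf7, Isg15 and Stat2 do not overlap between the times, and Oasl2, Ifitm3, Ifit1 and Bst2 spread several-fold between the batches of 6 h.

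The remaining calls differed between groups. Oasl1 and Ifi44 were called in untreated neurons at -1.98 (SE 0.844, adjusted p = 0.0475) and -1.53 (SE 0.650, adjusted p = 0.0458) in edgeR. Oasl1 was also called after miR-92a-1-5p (-2.10) and Mut.oligo (-3.77), and Ifi44 after Mut.oligo (-1.67). Ifit1, Irf9 and Xaf1 were called lower in the 3 exposed groups, Ifit1 at -2.35 to -1.70, Irf9, the DNA-binding subunit of the STAT complex, at -0.79 to -0.53, and Xaf1 at -2.05 to -1.39. In untreated neurons these genes were below 0 as well but not called, at -1.39, -0.39 and -0.68. Mut.oligo alone had calls for Ifitm3 (-1.54), Parp14 (-1.89) and Zbp1 (-2.53), Oas1a was called after miR-124-5p and Mut.oligo, and Ifitm2 after miR-92a-1-5p and Mut.oligo. Reads of Oas1a share 47.6% of their 75-base windows with Oas1g and those of Ifitm2 42.0% with Gm45717 and other loci, so their counts are uncertain. None of the differences between groups in the change over time was called.

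**Figure D5:**
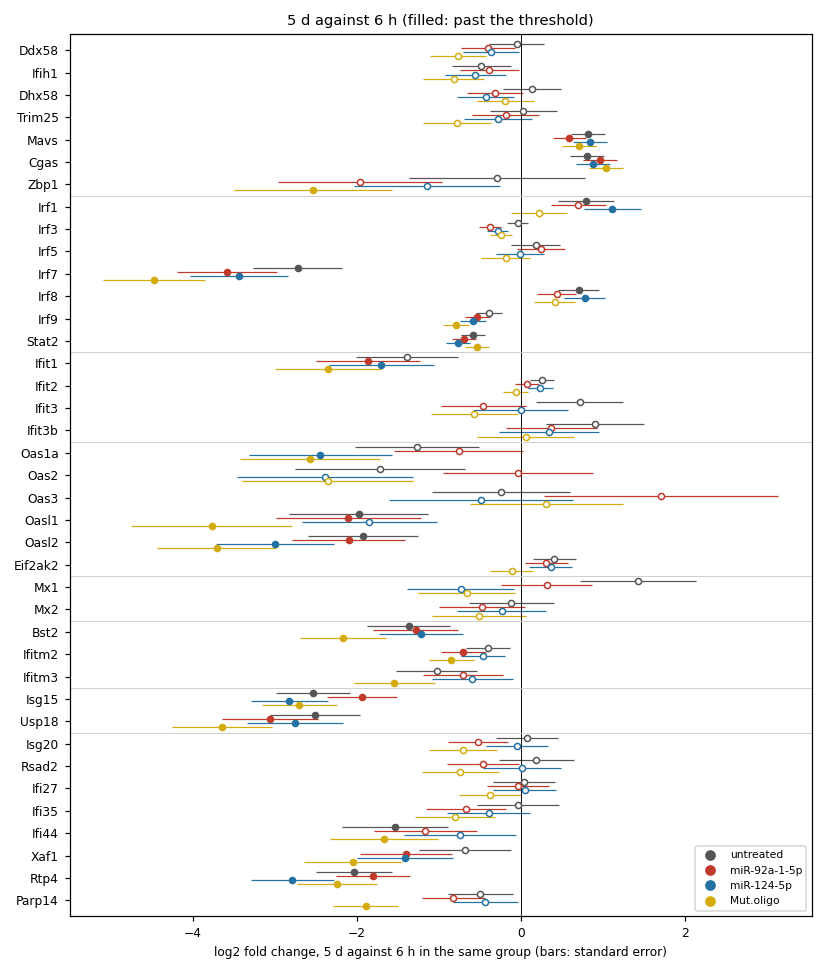
Log2 fold change of each of the 39 members at 5 d against 6 h within each of the 4 groups, with standard errors. Filled circles were called, 9 lower and 4 higher in untreated neurons, and Irf7 lies furthest left in all 4 groups, at -4.47 to -2.72.

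Single libraries decided some of these calls. Leaving out each library in turn, Irf7, Isg15, Usp18, Rtp4 and Cgas were called in every fit of all 4 groups, and Mavs in all but 1, without miR-92a-1-5p replicate 1 of 5 d (0.45). In untreated neurons Stat2 (-0.48) and Irf8 (0.45) were not called without replicate 3 of 5 d. Oasl2 and Bst2 were not called without replicate 4 of 6 h (-1.25 and -0.96), replicate 2 of 5 d (-1.69 and -1.18) or replicate 4 of 5 d (-1.70 and -1.26), Ifi44 without these (-1.02, -1.27 and -1.36) or replicate 1 of 6 h (-1.49), and Oasl1 without replicates 2, 3 or 4 of 6 h (-2.09, -1.94 and -1.44) or 2 or 4 of 5 d (-1.64 and -1.56). Irf1 was not called without replicates 1 or 3 of 6 h (0.63 and 0.62) or 1 or 3 of 5 d (0.73 and 0.53). The processing mattered for 2 of these calls too. Irf1 was not called with RLE in place of TMM scaling (0.76), at least 10 counts in every library (0.76) or only the groups compared (0.74). Oasl1 was not called with no filter on low counts (-1.98).

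Several calls in the exposed groups rested on single libraries too. For miR-92a-1-5p, Bst2 and Oasl1 were called in 2 of the 8 fits that left out a library, Xaf1 and Ifitm2 in 3, Irf9 in 6, and Ifit1 and Oasl2 in 7. Replicate 3 of 6 h, in batch E, ended the calls of all 7, with values of -1.04 for Bst2, -1.11 for Xaf1, -0.56 for Ifitm2, -0.43 for Irf9, -1.54 for Ifit1 and -1.49 for Oasl2, and Oasl1 ran from -2.64 to -1.76 over the 8 fits. For miR-124-5p, Bst2 and Xaf1 were called in 3 of 8 fits, Ifit1 in 5, Oas1a in 6, and Irf9 and Irf1 in 7. Its replicate 1 of 6 h, also in batch E, ended the calls of Bst2 (-0.75), Xaf1 (-1.01), Ifit1 (-1.07), Oas1a (-1.84) and Irf9 (-0.43), and replicate 1 of 5 d that of Irf1 (0.79). With a replicate block, Bst2 (-1.21) and Xaf1 (-1.36) were not called for miR-124-5p, nor was Bst2 with only the groups compared (-1.26). For Mut.oligo, Zbp1 and Ifi44 were called in 4 of 8 fits, Stat2 in 5, and Oas1a, Ifitm3 and Xaf1 in 7. Replicate 4 of 6 h, the library of batch G, ended the calls of Zbp1 (-2.32), Ifi44 (-1.31), Oas1a (-1.57), Ifitm3 (-1.04) and Xaf1 (-1.46), and Stat2 was not called without replicate 3 of 6 h (-0.49) or replicates 1 or 4 of 5 d (-0.47 and -0.48). The smallest and largest values over the 8 fits kept 1 sign for each of these members.

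Other genes of the interferon pathway did not move in 1 direction. Over all genes 20.7% were called higher and 13.3% lower. In untreated neurons 7 of the 16 endosomal receptor and kinase genes were called higher at 5 d and 0 lower, with a median of 0.52. They included the RNA receptors Tlr3 (1.84) and Tlr7 (0.62), the related Tlr8 (2.40), the DNA receptor Tlr9 (1.49) and the adaptor Myd88 (0.53). Of the 14 receptor and JAK-STAT genes 1 was higher, Ifngr1 (0.66), and 3 were lower, the feedback inhibitors Socs3 (-1.59) and Socs1 (-0.57) and Ifnar2 (-0.60). The 44 further interferon-stimulated genes split, with 6 higher, among them the peptide transporter Tap2 (2.19) and the chemokine Cxcl10 (1.74), and 5 lower, among them the chemokine Ccl5 (-4.26) and the OAS gene Oas1b (-3.10), and their median was 0.12. These 44 genes were called no more often than all genes in either direction.

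Markers of cell types were tested between the times as well, where 20.7% of all genes were called higher and 13.3% lower. In untreated neurons all 8 astrocyte markers were called higher at 5 d with a median log2 fold change of 2.35, 3 of 14 microglial markers were higher and 0 lower, 3 of 10 neuronal markers were higher and 2 lower, 3 of 8 oligodendrocyte-lineage markers were lower, 1 of 7 endothelial markers was higher, and 3 of 8 mural and fibroblast markers were higher and 1 lower. The summed mural and fibroblast level in untreated libraries was 32.2 to 126 CPM at 6 h and 63.6 to 108 CPM at 5 d. The part of these cells in the change of the members was not tested.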

How the data were processed

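Per the methods, the authors made libraries with the TruSeq Stranded mRNA kit, sequenced 75-base single ends (NextSeq 500), aligned with STAR 2.7.3a to GRCm38 (GENCODE M12), counted reads per gene with featureCounts (Subread 2.0.0, reverse strand) and deposited these raw counts. Here counts were tested with edgeR 4.0.16 (quasi-likelihood, TMM, R 4.3.3) over the 4 groups of a time, or all 8 groups for time. Benjamini-Hochberg adjustment was over the genes that reached 5 counts in 3 or more libraries. A prior count of 2 entered log2 CPM values and not the tests. SE is the log2 fold change over the root of F. RPKM used GENCODE M21 exon lengths, and 345 of 49671 IDs had no symbol. The genes named from each comparison were the 3 members with the smallest p, and members called over time, and other genes were named after their values were seen. The members and lists were chosen with earlier results of these data known. DESeq2 1.42.0, other filters and scalings, batch covariates, a replicate block and leaving out each library were the alternatives. Fits were tested on simulated data. Replicates of a group differed beyond sampling noise in all 48 pairs (chi-square per degree of freedom 6.60 to 101).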

Additional observations from a re-analysis of the deposited data

Results flagged for a closer look

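Of 200 groups of 4 libraries over 25 named members, 8 held 1 library whose gap to its nearest neighbor took a larger share of the range of the group than the 95% critical value of Dixon's test, and chance gives this in about 1 in 20 groups. Irf8 was high in untreated replicate 3 of 5 d, at 1.85 CPM against 1.09 to 1.16 CPM (share of the range 0.911), and this library decided the Irf8 call over time. Ifi44 was high in miR-124-5p replicate 1 of 6 h, a batch E library, at 0.680 CPM against 0.127 to 0.199 CPM (0.871). Irf3 was low in miR-124-5p replicate 4 of 6 h, at 9.91 CPM against 11.2 to 11.3 CPM (0.931). Usp18 was low in miR-92a-1-5p replicate 4 of 5 d, at 0.0920 CPM against 0.211 to 0.235 CPM (0.832), and Mx1 in replicate 3 of that group, at 0.0426 CPM against 0.184 to 0.209 CPM (0.851). Isg20 was low in miR-92a-1-5p replicate 2 of 6 h, at 0.392 CPM against 0.431 to 0.437 CPM (0.861). The last pair rested on single counts. Oas3 had 1 count in miR-92a-1-5p replicate 4 of 6 h and 0 in the others (share 1), and Oasl1 had 0 in Mut.oligo replicate 2 of 5 d against 0.0167 to 0.0198 CPM (0.842).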

How the results depend on the processing

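No called gene changed sign, but uncalled medians of the members did. Of 288 medians under an alternative, 22 had the other sign, in 9 of 17 comparisons, and that of Mut.oligo at 6 h went from 0.321 to -0.0769 with the batch as a covariate, to -0.0633 in DESeq2 with the batch and to -0.0210 without its replicate 4. Of all counts and medians, 586 stayed near their value and 9 moved further. Near was loose enough to take in medians of the other sign, such as those of Mut.oligo at 6 h above. The 586 therefore do not stand for a stable sign. With at least 10 counts required in every library, which left 20 members to test, members called over time went from 13 to 6 in untreated neurons, from 14 to 7 for miR-92a-1-5p, from 15 to 8 for miR-124-5p and from 19 to 11 for Mut.oligo. Leaving out each library, the miR-92a-1-5p count ran from 7 (without replicate 3 of 6 h) to 16, and was 9 without replicate 1 or replicate 3 of 5 d. The median of the members for Mut.oligo, 5 d minus 6 h, was -0.58, but -0.0490 with the batch as a covariate and -0.0703 in DESeq2 with the batch, and the cause was not tested. Of single-gene values 1003 kept their side of the threshold and 88 fell short of it. With a replicate block Irf1 and Ifi44 were not called in untreated neurons, where 11 members were called over time against 13, and 0 were called in the comparisons with untreated. Replicate numbers followed the experiment batches only in part, with 2 of 24 same-number pairs in 1 batch at 6 h and 13 of 24 at 5 d. Same-number deviations correlated at a median of -0.19 and 0.25, with 7 and 15 of 24 pairs over 0.1, against 0.62 and 0.51 within batches, so the numbers were not taken as pairs. Depth limited Mx1, Zbp1, Oas2 and Oas3, whose intervals rest on few counts.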
